A study of Mus musculus with 16 samples.

Results

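Semaphorins are secreted or membrane-bound guidance ligands, and plexins and neuropilins are the receptors that read them. The family was taken whole, by gene symbol, as 31 mouse genes: 20 semaphorins (Sema3a to Sema7a), 9 plexins (Plxna1 to Plxnd1) and the 2 neuropilins Nrp1 and Nrp2. Each symbol matched 1 gene among the 55385 genes in the expression tables, and 29 of the 31 were expressed well enough to be tested together with 17222 genes in all. The exceptions were Plxnb3, with 0 to 7 estimated counts in a library, and Sema3g, with 0 to 8.

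RNA was measured in dissociated hippocampal cultures prepared from newborn C57BL/6N mice, which hold neurons and glia together. A recombinant adeno-associated virus carried either Control-shRNA, a short hairpin RNA under a U6 promoter with no intended mouse target, or Dnmt3a1-shRNA, directed at the long transcript of the DNA methyltransferase gene Dnmt3a, and both viruses also made GFP from a chicken β-actin promoter. Cultures of each kind were harvested at baseline or after 4 h of bicuculline, a GABA-A receptor antagonist that drives bursts of synaptic firing. The 4 groups had 4 libraries each, which the study describes as separate neuronal preparations. The design asks how the family responds to synaptic activity, and how its levels differ when Dnmt3a1 has been lowered.

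The 16 libraries held 28912697 to 29586355 estimated counts. Dnmt3a, all of its transcripts summed, was at 293 to 324 counts-per-million units (CPM, on library sizes scaled for composition) in the Control-shRNA baseline libraries and at 39.4 to 48.1 CPM in the Dnmt3a1-shRNA baseline libraries, and at 311 to 338 against 43.8 to 47.8 CPM after bicuculline, so that 14.2% and 13.9% of the control level remained (two-sided exact permutation test, p = 0.0286 in each of the 2 conditions, the smallest that 4 against 4 libraries can give). Summed markers of neurons (Tubb3, Map2, Rbfox3, Snap25, Syt1, Stmn2) reached 4872 to 6474 transcripts-per-million units (TPM) in a library, and all 6 were expressed. The cultures also carried astrocyte markers (6 genes, 192 to 446 TPM), oligodendrocyte lineage markers (8 genes, 81.2 to 188 TPM, Pdgfra and Sox10 under 1 TPM on average) and fibroblast and mural cell markers (6 genes, 36.6 to 91.0 TPM, Pdgfrb under 1 TPM). Microglia markers (6 genes) summed to 1.84 to 6.88 TPM and endothelial markers (4 genes) to 0.66 to 1.09 TPM. The values are from whole cultures, in which fewer cells of a type and less RNA per cell cannot be told apart.

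Class 3 semaphorins are secreted and mostly act through a complex of a neuropilin, which binds the ligand, and a class A plexin, which carries the signal into the cell. Semaphorins of classes 4, 5 and 6 span the membrane, Sema7a is held by a lipid anchor, and these bind plexins directly, with class 4 ligands using mainly class B plexins, class 6 ligands class A plexins, and Sema7a using Plxnc1. In the hippocampus the family is known for guiding axons, for placing and pruning synapses and dendritic spines, and for adjusting excitatory and inhibitory synapses in mature neurons.

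In GENCODE M21 on GRCm38, Nrp1 (ENSMUSG00000025810.9) spans chr8:128358604-128503363 on the plus strand. On the minus strand, Plxnc1 (ENSMUSG00000074785.5) spans chr10:94790866-94944835, Sema4f (ENSMUSG00000000627.15) spans chr6:82911885-82939769, Sema4c (ENSMUSG00000026121.13) spans chr1:36548639-36558349, and Sema4d (ENSMUSG00000021451.16) spans chr13:51685529-51793747. The values below are sums over all annotated transcripts of each gene. Exons of Sema4c share 334 bases with the antisense gene D430040D24Rik, which averaged 23.1 counts against 1094 for Sema4c, and the other overlaps of these 5 genes were with genes under 1 count.

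Nrp1 and Sema4f were the 2 members called lower than control (by the test given below) in Dnmt3a1-shRNA cultures in both conditions, and Plxnc1 had the highest positive fold change of the family there. Their sequences just upstream of the RefSeq transcription start are shown because CpG dinucleotides, in capitals, are the substrate of the enzyme that was knocked down. Each run holds the 250 bases before the RefSeq start in build GRCm38.p6, 5′ to 3′ on the gene's strand, and none of these bases lies in an annotated exon. The windows are chr8:128358823-128359072 on the plus strand for Nrp1, chr6:82939770-82940019 on the minus strand for Sema4f and chr10:94944846-94945095 on the minus strand for Plxnc1. GENCODE and RefSeq place the start of Nrp1 differently. The GENCODE span begins with a retained-intron transcript, Nrp1-203, at 128358604, before the RefSeq start at 128359073, so the Nrp1 window lies inside the annotated gene, in an intron of that transcript. The protein-coding transcript, Nrp1-201, begins 211 bases after the RefSeq start.
Nrp1: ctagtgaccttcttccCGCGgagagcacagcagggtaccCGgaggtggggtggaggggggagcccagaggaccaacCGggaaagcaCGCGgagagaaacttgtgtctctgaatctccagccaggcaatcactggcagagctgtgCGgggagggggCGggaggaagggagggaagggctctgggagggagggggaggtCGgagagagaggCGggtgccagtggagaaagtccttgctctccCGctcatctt
Sema4f: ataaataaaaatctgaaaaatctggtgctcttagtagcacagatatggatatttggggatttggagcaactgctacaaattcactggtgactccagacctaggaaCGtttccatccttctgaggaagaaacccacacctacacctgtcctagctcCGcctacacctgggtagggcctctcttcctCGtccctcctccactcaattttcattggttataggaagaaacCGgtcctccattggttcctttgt
Plxnc1: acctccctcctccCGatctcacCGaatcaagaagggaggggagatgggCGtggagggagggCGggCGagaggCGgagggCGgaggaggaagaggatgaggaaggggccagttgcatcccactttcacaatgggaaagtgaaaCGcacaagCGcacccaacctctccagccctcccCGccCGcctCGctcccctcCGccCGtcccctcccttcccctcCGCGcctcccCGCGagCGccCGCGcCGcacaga

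The Nrp1 window held 11 CpGs, the Sema4f window 4 and the Plxnc1 window 22. Among all 32851 upstream windows of the same length, 35.6%, 62.2% and 14.8% had at least as many. The 37 windows of the 26 members with a sequence ranged from 0 CpGs, at 1 of the Sema6c starts, to 39 at Sema3c, with a median of 13 against 6 over all windows. The set of all windows was not limited to genes expressed in these cultures, and 8 members entered with more than 1 start. The 2 medians therefore do not show a trait particular to the family. Methylation was not measured in these libraries. The cyclic AMP response element TGACGTCA, which reads the same on both strands, was in 0 of the 37 windows and in 1.55% of all windows. The AP-1 motif TGANTCA, also the same on both strands, was in 3 of the 37, at starts of Sema4c, Sema4d and Sema6b, and in 6.75% of all windows. A match describes letters in these windows only.

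Levels between genes were compared in TPM, which divides by transcript length. In Control-shRNA baseline cultures the family summed to 941 ± 23.4 TPM (SD, n = 4). Plxna1, a class A plexin, was the most abundant member at 112 ± 8.11 TPM, followed by Nrp1 at 82.1 ± 6.66 TPM and Sema6b at 79.4 ± 6.74 TPM. Plxna1 stood above Nrp1 in every library, whereas Nrp1 and Sema6b overlapped. Sema4g, Plxna2, Nrp2, Sema4a, Plxnd1, Sema7a, Plxna3 and Sema4d came next, from 56.7 to 42.5 TPM, each overlapping its neighbours in this order. Of the 30 neighbouring pairs in the order, 22 overlapped between libraries. The secreted class 3 ligands lay at the low end: Sema3e and Sema3c were at 11.9 ± 1.26 and 10.2 ± 2.10 TPM, Sema3f at 5.22 ± 0.997 TPM, Sema3a at 3.25 ± 1.04 TPM, Sema3d at 1.21 ± 0.0498 TPM and Sema3b at 0.781 ± 0.344 TPM.

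**Figure D1:**
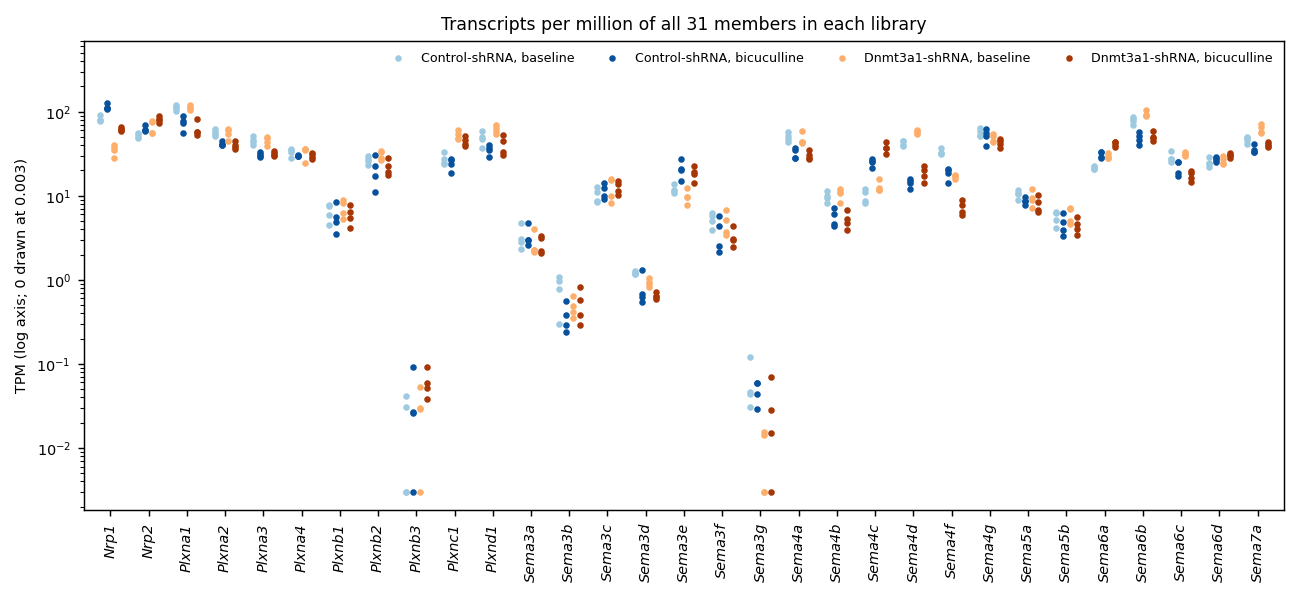
TPM (log axis) of each of the 31 members, 4 points per group for the 4 libraries, in order of family. Receptors and transmembrane ligands mostly sit above 20 TPM, the class 3 ligands mostly below 20 TPM, and Plxnb3 and Sema3g at or near 0, where values of 0 are drawn at 0.003.

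The order changed with both treatments. After bicuculline in Control-shRNA cultures Nrp1 was the most abundant member at 114 ± 8.55 TPM, above Plxna1 at 73.8 ± 14.1 TPM in every library. In Dnmt3a1-shRNA baseline cultures Nrp1 was at 35.1 ± 4.97 TPM and 12th in the order, behind Nrp2, which was 3rd at 66.0 ± 11.7 TPM. Plxnc1 moved from 15th in Control-shRNA baseline cultures, at 27.3 ± 4.38 TPM, to 8th at 52.3 ± 5.80 TPM in Dnmt3a1-shRNA baseline cultures.

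Fold changes were tested on counts with edgeR's quasi-likelihood test over all 17222 genes, and a gene was called when its Benjamini-Hochberg adjusted p was under 0.05 and its log2 fold change was over 0.5 in size. In the comparison of bicuculline with baseline in Control-shRNA cultures, 9 of the 29 tested members were called, against 21.9% of all genes. Nrp1, Sema3e, Sema4c and Sema6a were higher (10.8% of all genes) and Plxna1, Sema3d, Sema4b, Sema4d and Sema4f were lower (11.1%). In Dnmt3a1-shRNA cultures bicuculline gave 10 called members against 25.8% of all genes. The same 4 genes were higher (12.6% of all genes), and Plxna1, Sema4b, Sema4d, Sema4f, Sema6b and Sema6c were lower (13.2%). These shares of members, 31.03% and 34.5%, were each above the share of all genes by less than 10 percentage points.

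Between Dnmt3a1-shRNA and Control-shRNA cultures at baseline 5 members were called, against 5.83% of all genes. Plxnc1, Sema4c and Sema6a were higher (1.76% of all genes) and Nrp1 and Sema4f were lower (4.07%). After bicuculline 4 were called, against 5.89% of all genes, with Plxnc1 and Sema4c higher (2% of all genes) and Nrp1 and Sema4f lower (3.9%). The baseline count rose to 8 when Control-shRNA baseline replicate 1, Dnmt3a1-shRNA baseline replicate 2 or Dnmt3a1-shRNA baseline replicate 3 was left out, since Nrp2, Sema4d and Sema7a then passed the fold threshold. The share of all genes called in those fits was not counted. The median log2 fold change of the tested members was 0.13 at baseline and 0.10 after bicuculline, and that of all genes was 0.01 and −0.01. The 4 comparisons share groups of libraries, so a value that is high in one enters the next, and each is given on its own below. The study listed Nrp1, Sema4c, Sema4d, Sema4f and Sema6a among its genes of interest from these same samples, so their changes are not independent evidence for it. The libraries here carry only the hairpin that the study names Dnmt3a1-shRNA2. By qRT-PCR in separate cultures the study found Nrp1 reduced with either of its Dnmt3a1 hairpins. It also described a mild apparent effect of Control-shRNA on Nrp1, which did not recur in its other experiments.

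**Figure D2:**
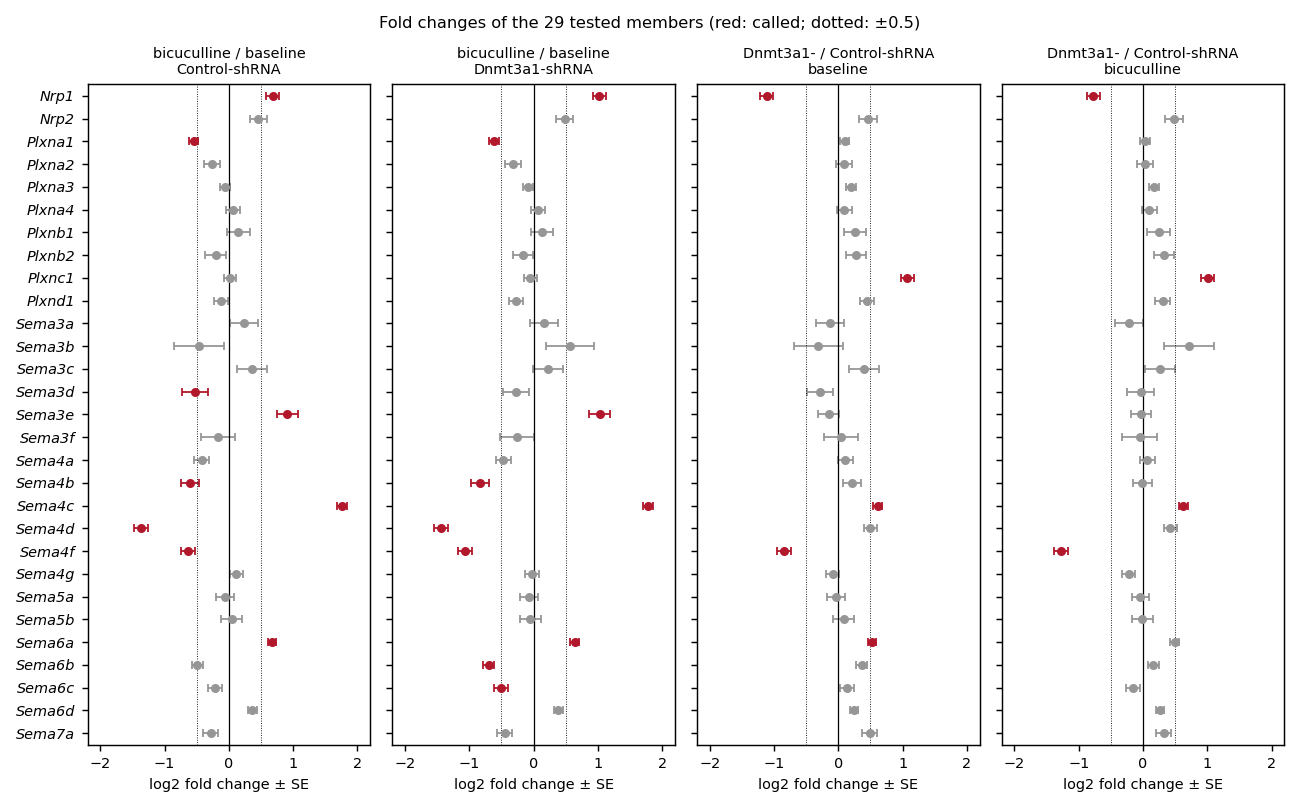
Log2 fold change ± standard error of each of the 29 tested members in the 4 comparisons (all 16 libraries fitted together, 4 per group). Red points were called, grey points were not, and dotted lines mark 0.5 in either direction. Nrp1 and Sema4f sit to the left and Plxnc1 and Sema4c to the right in both comparisons of hairpins, and Sema4c and Sema4d are the points farthest from 0 in both comparisons of bicuculline with baseline.

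Among the receptors, the neuropilins differed in the sign of their fold change between hairpins, and Nrp1 was the one called. Nrp1, which binds Sema3a and also vascular endothelial growth factor, was at 138, 124, 123 and 151 CPM in the Control-shRNA baseline libraries and at 70.5, 51.1, 55.7 and 70.6 CPM in the Dnmt3a1-shRNA baseline libraries. After bicuculline it was at 222, 203, 199.5 and 236 CPM with Control-shRNA and at 129, 134, 115.5 and 124 CPM with Dnmt3a1-shRNA. No stimulated library overlapped the baseline libraries of the same hairpin, and no Dnmt3a1-shRNA library overlapped the Control-shRNA libraries of the same condition. The stimulated Dnmt3a1-shRNA libraries lay within the range of the unstimulated control libraries, apart from the lowest at 115.5 CPM.

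The log2 fold change of Nrp1 between hairpins was −1.11 (SE 0.10, edgeR adjusted p = 9.9e-07) at baseline and −0.78 (SE 0.10, adjusted p = 4.3e-05) after bicuculline. Bicuculline raised it by a log2 fold change of 0.68 (SE 0.10, adjusted p = 2.8e-05) in Control-shRNA cultures and of 1.02 (SE 0.10, adjusted p = 2.7e-07) in Dnmt3a1-shRNA cultures. On the TPM scale the first of these increases was 0.47, under the fold threshold, with either pseudocount. The median over all genes in those TPM fits was −0.09 with a pseudocount of 1 and −0.16 with 0.1.

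Nrp2, the co-receptor preferred by Sema3f, was at 175, 147, 142 and 169 CPM in Control-shRNA baseline libraries and at 266, 185, 167 and 252 CPM with Dnmt3a1-shRNA. Its log2 fold changes lay between 0.46 and 0.48 in all 4 comparisons, with adjusted p of 0.0068 to 0.026, and so it passed on p but not on fold. It was called when 1 library was left out, namely without Control-shRNA baseline replicate 1 (0.51 for bicuculline and 0.51 for the hairpin), without Dnmt3a1-shRNA baseline replicate 2 or 3 (up to 0.57 at baseline), without Control-shRNA bicuculline replicate 4 or Dnmt3a1-shRNA bicuculline replicate 3 (0.55 and 0.57 after bicuculline), and without Dnmt3a1-shRNA baseline replicate 1 or 4 or Dnmt3a1-shRNA bicuculline replicate 3 (0.56 to 0.59 for bicuculline with Dnmt3a1-shRNA).

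Within each library the ratio of Nrp1 to Nrp2 shows both changes on 1 scale. In TPM it was 1.46, 1.57, 1.60 and 1.65 in Control-shRNA baseline cultures and 1.87, 1.80, 1.83 and 1.82 after bicuculline. With Dnmt3a1-shRNA it was 0.491, 0.513, 0.620 and 0.520 at baseline and 0.670, 0.821, 0.850 and 0.742 after bicuculline. Nrp1 was thus the more abundant neuropilin in every Control-shRNA library and Nrp2 in every Dnmt3a1-shRNA library, and the ratio was higher after bicuculline with both hairpins. The sum of both neuropilins was 134 ± 9.38 TPM in Control-shRNA and 101 ± 16.1 TPM in Dnmt3a1-shRNA cultures at baseline, and 176 ± 13.5 and 143 ± 5.33 TPM after bicuculline.

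**Figure D3:**
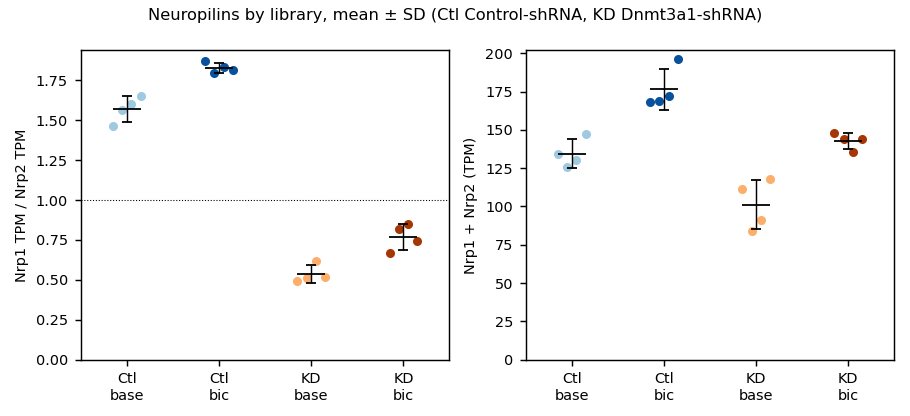
Left, Nrp1 TPM divided by Nrp2 TPM in each library (dotted line at 1). Right, the sum of Nrp1 and Nrp2 in TPM. Points are the 4 libraries of a group and bars the mean ± SD. The ratio lies between 1.46 and 1.87 in the 8 Control-shRNA libraries and between 0.491 and 0.850 in the 8 Dnmt3a1-shRNA libraries.

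Of the class A plexins, which transduce class 3 and class 6 signals, Plxna1 was called after bicuculline. Its level was 402, 420, 394 and 378 CPM at baseline and 247, 313, 275 and 254 CPM after bicuculline in Control-shRNA cultures. In Dnmt3a1-shRNA cultures it was 417.5, 435, 423 and 431 CPM at baseline and 260, 276, 316 and 259 CPM after bicuculline. The stimulated libraries lay below all baseline libraries with either hairpin. The log2 fold changes were −0.55 (SE 0.08, adjusted p = 1.3e-05) and −0.62 (SE 0.08, adjusted p = 2.7e-06), and the differences between hairpins were 0.10 and 0.03 (SE 0.07 and 0.08, adjusted p = 0.42 and 0.83).

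Plxna2, Plxna3 and Plxna4 were not called in any of the 4 comparisons, with log2 fold changes from −0.32 to 0.19. Plxna2 had an adjusted p of 0.041 for bicuculline in Dnmt3a1-shRNA cultures, at a log2 fold change of −0.32. The class B plexins Plxnb1 and Plxnb2, receptors of class 4 semaphorins, spread widely between libraries. Plxnb2 was at 36.9, 73.0, 57.8 and 48.2 CPM in the stimulated Control-shRNA libraries, which spans the 53.6 to 69.6 CPM of the baseline libraries. With all libraries the log2 fold change of Plxnb2 between hairpins after bicuculline was 0.33 (adjusted p = 0.17). Plxnb2 was called there at 0.51 without Control-shRNA bicuculline replicate 2, its highest. Leaving out the highest control library raises this value by construction, so that call is not evidence of a difference.

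Plxnc1, the receptor of Sema7a, differed between hairpins. Its level was 86.3, 90.5, 105 and 81.9 CPM in Control-shRNA and 185, 182, 201 and 197 CPM in Dnmt3a1-shRNA baseline libraries. After bicuculline it was 73.6, 102.5, 102 and 90.4 CPM against 187, 196, 193.5 and 162 CPM. All 8 Dnmt3a1-shRNA libraries lay above all 8 Control-shRNA libraries. The log2 fold changes were 1.07 (SE 0.10, adjusted p = 9.9e-07) and 1.004 (SE 0.10, adjusted p = 2.0e-06), while bicuculline changed Plxnc1 by 0.02 and −0.05 (SE 0.10 and 0.10, adjusted p = 0.90 and 0.70). Plxnd1, a receptor of Sema3e that needs no neuropilin, had a log2 fold change between hairpins of 0.45 (SE 0.11, adjusted p = 0.010) at baseline and of 0.31 (adjusted p = 0.069) after bicuculline, under the fold threshold in both.

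Summed microglia markers also differed between hairpins after bicuculline, at 4.09 to 6.35 TPM with Control-shRNA and 2.57 to 3.79 TPM with Dnmt3a1-shRNA. At baseline they overlapped, at 3.99 to 6.88 and 1.84 to 4.55 TPM, and 3 of the 6 (Cx3cr1, P2ry12, Tmem119) averaged under 1 TPM. The sums of the other 5 marker lists overlapped between hairpins in both conditions, but single markers moved. At baseline, where same-numbered libraries were taken as pairs, 5 of the 6 astrocyte markers (Gfap, Aqp4, Aldh1l1, Slc1a3, Gja1) were higher with Dnmt3a1-shRNA in all 4 pairs and Slc1a2 was lower in all 4. Gfap was at 64.5, 79.5, 106 and 53.1 CPM with Control-shRNA and at 79.6, 124, 160 and 99.1 CPM with Dnmt3a1-shRNA. Its log2 fold change was 0.61 (SE 0.25, adjusted p = 0.11), and 0.60 (SE 0.12, adjusted p = 0.00087) with the replicate block. With the block Gfap and Gja1 were called and without it no astrocyte marker was. All 6 fibroblast and mural cell markers were higher in all 4 baseline pairs, of which Pdgfrb was called (0.75, SE 0.19, adjusted p = 0.0097). Of the 6 neuron markers 3 were higher in all 4 pairs, and Tubb3 and Stmn2 did not overlap between hairpins, with log2 fold changes of 0.51 (SE 0.09, adjusted p = 0.00095) and 0.29 (SE 0.07, adjusted p = 0.0076). The microglia markers Csf1r and Aif1 were lower without overlap in both conditions, and Tmem119 was higher in all 4 baseline pairs. Csf1r was called, at −0.66 at baseline and −0.75 after bicuculline. The endothelial marker Tek was called higher, at 1.12 and 1.65. Pecam1 was higher and Cldn5 lower in all 4 baseline pairs. Aif1, Tmem119, Tek, Pecam1 and Cldn5 averaged under 1 CPM in every group. The part of these marker differences in the members' results was not tested.

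Among the secreted class 3 ligands Sema3e, which signals through Plxnd1, was higher after bicuculline. It was at 38.6, 34.3, 40.9 and 37.5 CPM at baseline and at 95.9, 52.6, 67.9 and 67.6 CPM after bicuculline with Control-shRNA. With Dnmt3a1-shRNA it was at 36.6, 27.6, 38.6 and 33.8 CPM at baseline and at 89.7, 54.8, 63.5 and 70.2 CPM after bicuculline. Every stimulated library was above every baseline library, and the stimulated libraries of both hairpins covered nearly the same range. The log2 fold changes were 0.91 (SE 0.16, adjusted p = 0.00021) and 1.03 (SE 0.16, adjusted p = 5.2e-05), and those between hairpins were −0.15 and −0.03 (adjusted p = 0.61 and 0.92).

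Sema3d was called at a log2 fold change of −0.53 (SE 0.20, adjusted p = 0.046) for bicuculline with Control-shRNA, from very low levels. It was at 3.72, 2.81, 3.04 and 3.83 CPM at baseline and at 3.65, 1.63, 2.06 and 1.96 CPM after bicuculline, and the first stimulated library lay inside the baseline range. This call was lost when any 1 of 10 libraries was left out (Control-shRNA baseline replicate 1, 3 or 4, Control-shRNA bicuculline replicate 2, 3 or 4, Dnmt3a1-shRNA baseline replicate 1 or 4, Dnmt3a1-shRNA bicuculline replicate 2 or 4), with log2 fold changes from −0.57 to −0.39. Sema3a, the classical ligand of Nrp1, was at 6.48 to 10.6 CPM in control baseline libraries, and it, Sema3b, Sema3c and Sema3f were not called in any of these comparisons. Sema3b, under 1 CPM throughout, had the widest interval, with a log2 fold change between hairpins after bicuculline of 0.72 (SE 0.39, adjusted p = 0.22). Sema3a had a log2 fold change between hairpins of −0.13 (SE 0.22) at baseline and −0.21 (SE 0.22) after bicuculline.

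Class 4, transmembrane ligands of class B plexins, held 3 of the 6 members with a log2 fold change over 1 in size in any comparison. Sema4c, a ligand of Plxnb2, was at 13.4, 15.2, 14.02 and 13.1 CPM in control baseline libraries and at 44.9, 47.9, 48.1 and 48.2 CPM after bicuculline. With Dnmt3a1-shRNA it was at 21.5, 21.8, 21.1 and 20.8 CPM at baseline and at 68.6, 84.3, 66.5 and 73.0 CPM after bicuculline. The 4 groups did not overlap, and the order was control baseline, Dnmt3a1-shRNA baseline, control stimulated, Dnmt3a1-shRNA stimulated. The log2 fold changes for bicuculline were 1.76 (SE 0.07, adjusted p = 6.2e-12) and 1.78 (SE 0.07, adjusted p = 3.8e-12), and those between hairpins were 0.61 (SE 0.07, adjusted p = 2.4e-05) at baseline and 0.63 (SE 0.07, adjusted p = 8.5e-06) after bicuculline. On the TPM scale the baseline difference between hairpins was 0.34 with a pseudocount of 1 and 0.36 with 0.1 (limma adjusted p = 0.18 and 0.20) and was not called. The median over all genes in those TPM fits was −0.06 and −0.10.

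Sema4d, a ligand of Plxnb1, moved the other way with bicuculline. It fell from 53.3, 47.1, 42.7 and 46.0 CPM to 15.7, 20.4, 18.8 and 18.2 CPM in Control-shRNA cultures. In Dnmt3a1-shRNA cultures it fell from 75.3, 62.5, 59.5 and 69.7 CPM to 21.1, 26.8, 27.6 and 22.8 CPM. Each condition's Dnmt3a1-shRNA libraries lay above its control libraries. The log2 fold changes for bicuculline were −1.37 (SE 0.10, adjusted p = 1.4e-08) and −1.44 (SE 0.10, adjusted p = 4.9e-09). Those between hairpins were 0.50 at baseline (SE 0.10, adjusted p = 0.0024), a value of 0.497 and thus just under the fold threshold, and 0.43 after bicuculline (SE 0.11, adjusted p = 0.0095). Without Control-shRNA baseline replicate 1 or Dnmt3a1-shRNA baseline replicate 2 or 3 the first of these was 0.53 to 0.56 and was called. With all libraries it was also called with DESeq2's size factors (0.503), with no filter on low counts (0.5004) and with DESeq2 (0.504).

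Sema4f, a semaphorin found at synapses, was the only member called lower in all 4 comparisons. It was at 61.8, 68.1, 55.3 and 60.5 CPM in control baseline libraries, at 32.8, 44.8, 41.4 and 38.9 CPM in stimulated controls, at 38.4, 35.7, 30.8 and 31.7 CPM in Dnmt3a1-shRNA baseline libraries and at 14.7, 17.6, 18.5 and 14.7 CPM in stimulated Dnmt3a1-shRNA libraries. The unstimulated Dnmt3a1-shRNA libraries overlapped the stimulated controls, and the stimulated Dnmt3a1-shRNA libraries were below all others. The log2 fold change between hairpins was −0.85 (SE 0.10, adjusted p = 2.6e-05) at baseline and −1.27 (SE 0.11, adjusted p = 3.6e-07) after bicuculline. That for bicuculline was −0.64 (SE 0.10, adjusted p = 7.5e-05) with Control-shRNA and −1.06 (SE 0.11, adjusted p = 3.3e-07) with Dnmt3a1-shRNA.

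Sema4b, another class 4 ligand, was at 17.2, 19.7, 16.03 and 14.3 CPM at baseline and at 9.46, 14.3, 11.2 and 9.19 CPM after bicuculline with Control-shRNA, where stimulated replicate 2 and baseline replicate 4 met at 14.3 CPM. With Dnmt3a1-shRNA the ranges were 16.8 to 20.9 and 8.99 to 13.4 CPM and did not overlap. The log2 fold changes were −0.61 (SE 0.14, adjusted p = 0.0023) and −0.83 (SE 0.14, adjusted p = 0.00011). Sema4a passed on p but not on fold after bicuculline, at −0.42 and −0.47 (adjusted p = 0.0074 and 0.0030), and was called at −0.52 without Control-shRNA baseline replicate 3 and at −0.57 and −0.53 without Dnmt3a1-shRNA baseline replicate 3 or Dnmt3a1-shRNA bicuculline replicate 4. Sema4g was not called, with log2 fold changes from −0.22 to 0.11. The class 5 ligands Sema5a and Sema5b were not called either, with log2 fold changes between −0.07 and 0.08.

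**Figure D4:**
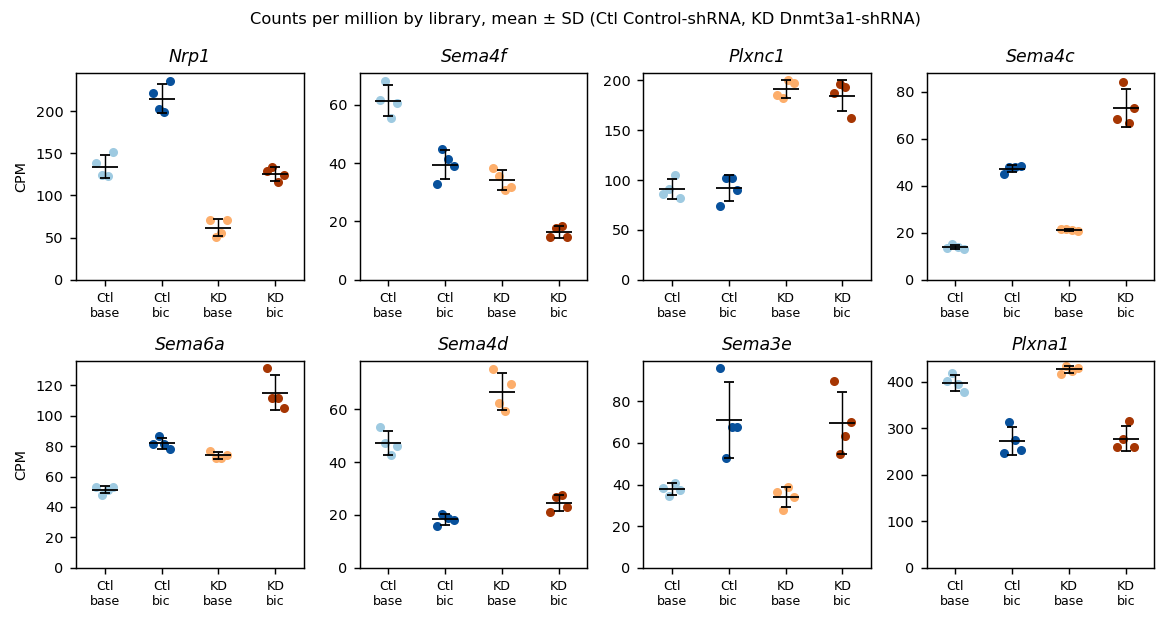
CPM by library of 8 members in the 4 groups, with the mean ± SD and axes from 0. Nrp1 and Sema4f are lower and Plxnc1 and Sema4c higher with Dnmt3a1-shRNA (KD) in both conditions, and Sema4c and Sema3e are higher and Sema4d and Plxna1 lower with bicuculline under both hairpins.

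Class 6, ligands that can also act as receptors, moved in both directions. Sema6a was at 53.4, 48.1, 50.9 and 53.2 CPM in control baseline libraries, at 81.2, 86.9, 81.3 and 78.2 CPM in stimulated controls, at 77.1, 72.5, 72.3 and 74.3 CPM in Dnmt3a1-shRNA baseline libraries and at 132, 112, 112 and 105 CPM in stimulated Dnmt3a1-shRNA libraries. The 4 groups did not overlap. Bicuculline raised it by log2 fold changes of 0.67 (SE 0.07, adjusted p = 2.8e-07) and 0.64 (SE 0.07, adjusted p = 3.8e-07). Between hairpins it differed by 0.53 (SE 0.07, adjusted p = 3.2e-05) at baseline, where the call was lost at 0.50 (0.496) without Control-shRNA baseline replicate 2, and by 0.49 (SE 0.07, adjusted p = 5.5e-05) after bicuculline, which was called at 0.50 to 0.53 without Control-shRNA bicuculline replicate 2 or Dnmt3a1-shRNA bicuculline replicate 2, 3 or 4.

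Sema6b fell with bicuculline in Dnmt3a1-shRNA cultures, from 173, 192, 151 and 163 CPM to 99.9, 105, 111 and 101 CPM, with no overlap and a log2 fold change of −0.70 (SE 0.09, adjusted p = 2.9e-06). In Control-shRNA cultures the ranges were 119.5 to 142 and 82.9 to 108 CPM, also without overlap, and the log2 fold change of −0.50 (−0.496, SE 0.09, adjusted p = 0.00015) was just under the fold threshold. It passed at −0.58 to −0.50 without Control-shRNA baseline replicate 3 or 4, Control-shRNA bicuculline replicate 2 or any 1 of the stimulated Dnmt3a1-shRNA libraries. Sema6c was called with bicuculline in Dnmt3a1-shRNA cultures at −0.50 (−0.502, SE 0.11, adjusted p = 0.00090), with 43.0, 41.2, 33.3 and 40.6 CPM before and 25.9, 26.6, 30.7 and 28.5 CPM after. With the replicate block that value was −0.498 and was not called, and it was −0.49 to −0.46 without Dnmt3a1-shRNA baseline replicate 1, 2 or 4 or Dnmt3a1-shRNA bicuculline replicate 1 or 2.

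Sema6d passed on p in all 4 comparisons with log2 fold changes of 0.36 and 0.39 for bicuculline and 0.24 and 0.27 between hairpins (adjusted p from 0.00011 to 0.017), all under the fold threshold. Sema7a, the ligand of Plxnc1, was at 70.6, 64.6, 55.6 and 68.9 CPM in control and at 108, 86.7, 75.0 and 94.9 CPM in Dnmt3a1-shRNA baseline libraries. The 2 ranges did not overlap, and the log2 fold change of 0.49 (SE 0.12, adjusted p = 0.0082) was under the fold threshold. It was called at 0.51 to 0.57 without Control-shRNA baseline replicate 1 or 4 or Dnmt3a1-shRNA baseline replicate 2 or 3. After bicuculline it was 0.32 (adjusted p = 0.073). Bicuculline changed Sema7a by −0.28 (adjusted p = 0.067) with Control-shRNA and −0.45 (adjusted p = 0.0042) with Dnmt3a1-shRNA, the latter called at −0.54 to −0.51 without Dnmt3a1-shRNA baseline replicate 3 or Dnmt3a1-shRNA bicuculline replicate 1 or 4.

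Whether bicuculline acted differently under the 2 hairpins was tested as an interaction. None of the 29 members was called (edgeR, 0% of all 17222 genes at an adjusted p under 0.05), and 2 had an unadjusted p under 0.05, as did 852 of all genes. DESeq2 called 17 genes and voom with limma 0, of which 0 were members in either. The 2 members were Nrp1, with a difference in log2 fold change of 0.34 (SE 0.14, adjusted p = 0.96), and Sema4f, with −0.42 (SE 0.15, adjusted p = 0.86). The smallest standard error of this difference among the members was 0.09, for Sema6a and Sema6d. With the replicate block edgeR called 3 genes, of which 0 were members, and 5 members and 1564 of all genes had an unadjusted p under 0.05. The adjusted p was then 0.24 for Nrp1 and 0.30 for Sema4f. Nrp1 and Sema4f are named here after their values were seen.

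Partners of the family outside it were counted in the same fit. Of 9 ligand and co-receptor partners (L1cam, Nrcam, Chl1, Kdr, Met, Erbb2, Itgb1, Cd72, Vegfa), 3 (33.3%) were called for bicuculline with Control-shRNA, against 21.9% of all genes. Vegfa, a growth factor that also binds neuropilins, was higher at a log2 fold change of 1.22 (SE 0.13, adjusted p = 5.5e-07), Cd72, a receptor of Sema4d on immune cells, was higher at 1.36 (SE 0.29, adjusted p = 0.0011), and Kdr, the endothelial growth factor receptor that pairs with Nrp1, was lower at −1.08 (SE 0.22, adjusted p = 0.00069). In Dnmt3a1-shRNA cultures Vegfa (1.37, SE 0.13), Cd72 (1.14, SE 0.31) and Itgb1, an integrin subunit of the Sema7a receptor (0.61, SE 0.07), were higher with bicuculline, again 3 of 9 against 25.8% of all genes. Between hairpins Kdr was lower at baseline at −1.05 (SE 0.22, adjusted p = 0.0029), 1 of 9 against 5.83% of all genes. It averaged 1.7 CPM there with Control-shRNA and 0.814 CPM with Dnmt3a1-shRNA. After bicuculline edgeR called 0 of the 9 (5.89% of all genes), with 3 at an unadjusted p under 0.05, and DESeq2 and voom with limma also called 0.

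Of 24 cytoplasmic partners, which carry plexin signals to the cytoskeleton, 4 (16.7%) were called for bicuculline with each hairpin, under the 21.9% and 25.8% of all genes. Dpysl2, the collapsin response mediator CRMP2, was lower at −0.56 (SE 0.08) and −0.74 (SE 0.08), and Mical3, an actin and microtubule regulator, was lower at −0.66 (SE 0.07) and −0.72 (SE 0.07). Fes, a kinase bound by plexin A, was higher at 0.99 (SE 0.30) and 0.95 (SE 0.32), and Sh3bp1, a Rac-directed GTPase activator, was higher at 0.62 (SE 0.13) and 1.09 (SE 0.14). Between hairpins Dpysl3 (0.51, SE 0.09) and Farp1 (0.50, SE 0.06) were higher and Sh3bp1 (−0.62, SE 0.14) lower at baseline, 3 of 24 (12.5%) against 5.83% of all genes. The Dpysl3 call was lost, at 0.498 and 0.496, with the replicate block and with voom and limma. After bicuculline Farp2, the exchange factor of plexin A1, was lower at −0.62 (SE 0.18, adjusted p = 0.026), 1 of 24 (4.17%) against 5.89%.

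Estimated counts divided by TPM give a quantity that rises with the mean length of the transcripts a gene's reads were assigned to. It was read after the values on both scales had been seen, and was scaled to bases on 996 genes with 1 annotated transcript, whose implied length varied between libraries with a median SD of 0.00097 on the log2 scale. The scaled value is relative and not a measured length: in 8 of the 28 members with enough counts the highest group mean was above the longest annotated transcript, by up to 5.38% (Plxna4). Nrp1 has 4 annotated transcripts, 1 of them protein-coding, at 3597 bases, and its implied length stayed between 3611 and 3626 bases in the 4 group means. Plxna3, whose coding transcript has 6943 bases among 9 annotated, had an implied length of 4972 ± 343 bases in control baseline libraries and 5956 ± 279 bases after bicuculline. With Dnmt3a1-shRNA it was 5202 ± 376 and 6104 ± 188 bases. The difference for bicuculline was 0.26 on the log2 scale (SE 0.06, limma adjusted p = 0.022) and 0.23 (SE 0.06, adjusted p = 0.032).

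Plxna3 was the only 1 of these 28 members that was called in this measure, at an adjusted p under 0.05 and a log2 difference over 0.2, against 1.46% of 12441 genes with Control-shRNA and 2% with Dnmt3a1-shRNA. Its count level did not change detectably with bicuculline (log2 fold change −0.07 and −0.09, SE 0.08 and 0.08), while on the TPM scale it was lower, by −0.52 and −0.50 with a pseudocount of 1 (limma adjusted p = 0.00051 and 0.00058). The median over all genes in that TPM fit was itself −0.09 and −0.08. Sema3e, which has a coding transcript of 6861 bases and 2 others, had an implied length of 7087 ± 29.7 and 6558 ± 194 bases, a log2 difference of −0.11 (SE 0.02, adjusted p = 0.0034), under that threshold. Sema4c was at 3127 ± 323 and 3651 ± 93.9 bases (0.23, SE 0.07, adjusted p = 0.086). How well short reads separate these transcripts was not tested.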

How the data were processed

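The authors trimmed the reads with Trim Galore 0.6.4 and quantified them against transcripts of build GRCm38.p6 with kallisto (0.4.6 in the submitters' processing notes), and deposited for each of the 16 libraries a table of estimated counts per gene and a table of TPM. The libraries were made by a BGISeq-500 protocol from total RNA, and strand was not given in the sources used here. For this report the deposited estimated counts were rounded to whole numbers, filtered with filterByExpr and fitted with edgeR 4.0.16 (quasi-likelihood test, TMM scaling, 1 coefficient per group, all 16 libraries), with Benjamini-Hochberg adjustment over 17222 genes and a call at an adjusted p under 0.05 and a log2 fold change over 0.5 in size. Alternatives used limma 3.58.1 (on voom weights, and on log2 of the authors' TPM plus 1 or 0.1 for genes with a mean TPM of at least 0.1) and DESeq2 1.42.0. The script was checked on simulated counts.

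Every member is accounted for, with values by library where it was called, and up to 4 called partners a direction are named. The members, the partner lists and the marker lists were chosen with earlier results of these data known. Deviations of same-numbered libraries correlated at 0.142 to 0.221 for bicuculline with Control-shRNA and at 0.204 to 0.355 between hairpins at baseline, so the numbers were taken as pairs there, from the data and not from the labels. In both comparisons Control-shRNA baseline replicate 4 correlated better with a library of another number, so that pair is the least certain. Implied transcript length was tested with limma on 12441 genes with at least 10 counts in every library and more than 1 annotated transcript. Upstream sequences are from RefSeq (GRCm38.p6). Total counts of 28912697 to 29586355 per library limit the precision for members and partners under about 1 CPM.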

Additional observations from a re-analysis of the deposited data

Results flagged for a closer look

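In each group of 4 libraries the highest or lowest library was set against the other libraries, for 29 members in 4 groups, and 6 of 116 sets had a library standing apart beyond Dixon's 95% critical value. Chance flags about 1 in 20 such sets. Plxna3 was low in Dnmt3a1-shRNA baseline replicate 3, at 97.4 CPM against 118.5 to 122 CPM in the other libraries of that group. In the same library Sema3a was high, at 10.3 CPM against 5.96 to 6.19 CPM. Sema4a was high in Control-shRNA bicuculline replicate 4, at 38.5 CPM against 35.3 to 35.6 CPM, and Sema4c was low in Control-shRNA bicuculline replicate 1, at 44.9 CPM against 47.9 to 48.2 CPM. Sema5a was low in Control-shRNA baseline replicate 2, at 42.9 CPM against 55.3 to 56.0 CPM, and Sema6d was high in Control-shRNA baseline replicate 3, at 72.7 CPM against 65.6 to 66.8 CPM. The call of Sema4c for bicuculline and between hairpins held without the library named for it.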

How the results depend on the processing

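Of 28 called values of single members, 21 kept their call under all 26 alternatives and 7 lost it under at least 1 (38 of 728 values), and none of the 728 changed sign. The 7 were Sema3d, Sema6c, Nrp1 for bicuculline with Control-shRNA, Sema4c between hairpins at baseline, and Sema6a in 3 comparisons. The count of called members with a log2 fold change over 1 was 2 for bicuculline with Control-shRNA, 2 between hairpins at baseline, 2 after bicuculline and 5 for bicuculline with Dnmt3a1-shRNA. The share of all genes over that fold was not counted. With no fold threshold it was 11 of 29 between hairpins at baseline and 8 of 29 after bicuculline, against 2809 and 3046 of all 17222 genes. On TPM with either pseudocount 3 members were called between hairpins at baseline, 1 higher and 2 lower. Leaving out 1 library gave 8 to 10 called members for bicuculline with Control-shRNA, 4 to 8 between hairpins at baseline, 4 to 6 after bicuculline, 9 to 12 for bicuculline with Dnmt3a1-shRNA and 0 for the interaction. The cause was not tested. For the fits with a library left out, on TPM, with other scaling or with the replicate block, the share of all genes passing both thresholds was not counted. Their counts of members therefore cannot be set against all genes. The split of higher and lower calls for bicuculline with Control-shRNA was 4 and 5, and 2 and 7 or 3 and 8 on TPM with a pseudocount of 1 or 0.1. With Dnmt3a1-shRNA it was 4 and 6, 3 and 10 on TPM with either pseudocount, 3 and 8 on library sizes alone and 5 and 5 with DESeq2's size factors. Between hairpins at baseline it was 3 and 2, and 2 and 2 on library sizes alone. Sema4d was called higher there as well with DESeq2's size factors (0.503). After bicuculline the split was 2 and 2, and 3 and 2 with DESeq2's size factors. On library sizes alone the middle of the fold changes over the whole table shifted to −0.15 and −0.16 (log2) in the 2 comparisons of bicuculline with baseline. On TPM it was at −0.09 and −0.08 with a pseudocount of 1, and at −0.16 and −0.135 with 0.1. With the replicate block 9, 5, 4 and 9 members were called in the 4 comparisons and 0 in the interaction, and apart from Sema6c the block changed no call of a member. On adjusted p alone it raised the members between hairpins from 11 to 15 at baseline and from 8 to 15 after bicuculline. Over all genes these numbers rose from 2809 to 4743 and from 3046 to 5158. After bicuculline Plxnb2, Plxnd1 and Sema7a then passed on p but not on fold (edgeR adjusted p = 0.015, 0.0013 and 0.00025). Same-numbered libraries were not taken as pairs in that comparison, so these p-values and the rise after bicuculline rest on a pairing that was not established. Among the partners it ended the call of Dpysl3 between hairpins at baseline. Correlations of same-numbered libraries were 0.0667 to 0.388 between hairpins after bicuculline and 0.0631 to 0.337 for bicuculline with Dnmt3a1-shRNA, where a number was not taken as a pair. The alternative minimum of 50 counts for implied length, chosen after seeing the data, left the Plxna3 differences at 0.26 and 0.23. Among the members, Sema3b, Plxnb3 and Sema3g, all under 1 CPM, have the fewest counts behind their values.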
